A study of Ipomoea batatas with 9 samples.

Results

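Proline synthesis and breakdown was followed through 7 of the 110110 contigs (assembled transcript sequences) of sweetpotato storage root, Ipomoea batatas cultivar Xushu 18. A contig was taken when its product description named pyrroline-5-carboxylate (P5C) or proline dehydrogenase, which found 5, or when its gene symbol began with P5CS, which found 2. Roots were kept at 4 °C or at 14 °C, both at 85% relative humidity, or were not stored. Each of the 3 groups had 3 RNA sequencing libraries, and each library came from a pool of 7 roots, so the spread given here is between pools and not between single roots. Tissue was sampled at fortnightly intervals during storage, but no label says how long the roots of a given library had been in store, so whether libraries of one group share a storage time is not known.

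Plants make proline mainly from glutamate. P5C synthase (P5CS), a bifunctional enzyme with a glutamate kinase part and a reductase part, turns glutamate into the intermediate P5C, and P5C reductase turns P5C into proline. Breakdown runs in the mitochondrion, where proline dehydrogenase turns proline back into P5C and P5C dehydrogenase turns P5C into glutamate. Proline is known as a compatible solute that many plants accumulate under cold, drought and salt, and its breakdown as a source of electrons for respiration during recovery. P5CS is usually described as the controlling step of synthesis.

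The 7 contigs covered both synthesis steps but only 1 of the 2 breakdown steps. There were 2 P5CS contigs, both described as glutamate 5-kinase and both short (comp68765_c9 with 711 bases and comp68764_c10 with 485 bases). P5C reductase was 1 contig of 1161 bases, comp75300_c1, without a gene symbol. P5C dehydrogenase was 4 contigs with the symbol FIS1, of which comp103987_c1 (2277 bases), comp14959_c1 (2254 bases) and comp70441_c1 (2128 bases) were long and comp2182_c1 (667 bases) was short. No description contained proline dehydrogenase (0 contigs), so the name of the set goes beyond what its members hold on the breakdown side. Of the 7 members 6 passed the filter on low counts, and the shorter P5CS contig comp68764_c10 did not.

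Library totals ran from 67643612 to 95421913 estimated counts, at which 3 counts correspond to between 0.032 and 0.043 CPM (counts scaled to a common library size, here adjusted by the trimmed mean of M-values, TMM). The 100 contigs with the highest mean CPM over all 9 libraries took between 10.3% and 10.9% of a library at 4 °C. They took 18.6% to 20.1% at 14 °C and 26.2% to 29.5% in roots without storage. This set was the same for every library, so it is not each library's own most abundant contigs. Storage root markers moved with the groups as well. The summed level of 15 contigs of sporamin, the main storage protein of the root, was 94000 ± 21300 CPM in roots not stored, 29800 ± 4590 CPM at 14 °C and 158 ± 115 CPM at 4 °C (SD, n = 3 each). The 64 contigs of ADP-glucose pyrophosphorylase, the enzyme that commits sugar to starch, summed to 11200 ± 1780, 29300 ± 4240 and 234 ± 44.1 CPM in the same order. For 130 contigs of photosynthetic proteins, marking green tissue, the sums were 2140 ± 398, 603 ± 10.4 and 206 ± 20.9 CPM. The part of these shifts in the results below was not tested, and in such bulk libraries fewer cells of a type and less RNA per cell cannot be told apart.

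Between the storage temperatures, the reductase and the 3 long P5C dehydrogenase contigs were higher at 4 °C than at 14 °C, and the other P5CS and FIS1 contigs that could be tested did not pass. The count was 4 higher and 0 lower among the 6 tested members in edgeR's quasi-likelihood test with a Benjamini-Hochberg false discovery rate of 0.05 over 94802 contigs. Of all tested contigs 23.8% were called higher and 24% lower in that comparison. Against roots not stored, 5 members were higher and 1 lower at 4 °C, where 26% of all tested contigs were called higher and 26.6% lower. At 14 °C, 4 were higher and 1 lower against roots not stored, with 15.1% of all tested contigs called higher and 15.7% lower. Under library totals alone the calls over all contigs at 14 °C against not stored went from 14335 higher and 14915 lower to 21986 higher and 10372 lower, and the members' counts did not change. By libraries that do not overlap, 4 members were higher and 0 lower at 4 °C against 14 °C (29.5% and 30.8% of all tested contigs), 5 and 1 at 4 °C against not stored (30.1% and 30.0%), and 4 and 1 at 14 °C against not stored (22.6% and 22.0%). The median log2 fold change of the 6 members was 0.56, 1.15 and 0.49 in these comparisons, and that of all tested contigs was -0.075, -0.018 and 0.024. Each pair of comparisons shares a group of libraries, so the 3 are not independent of each other.

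**Figure D1:**
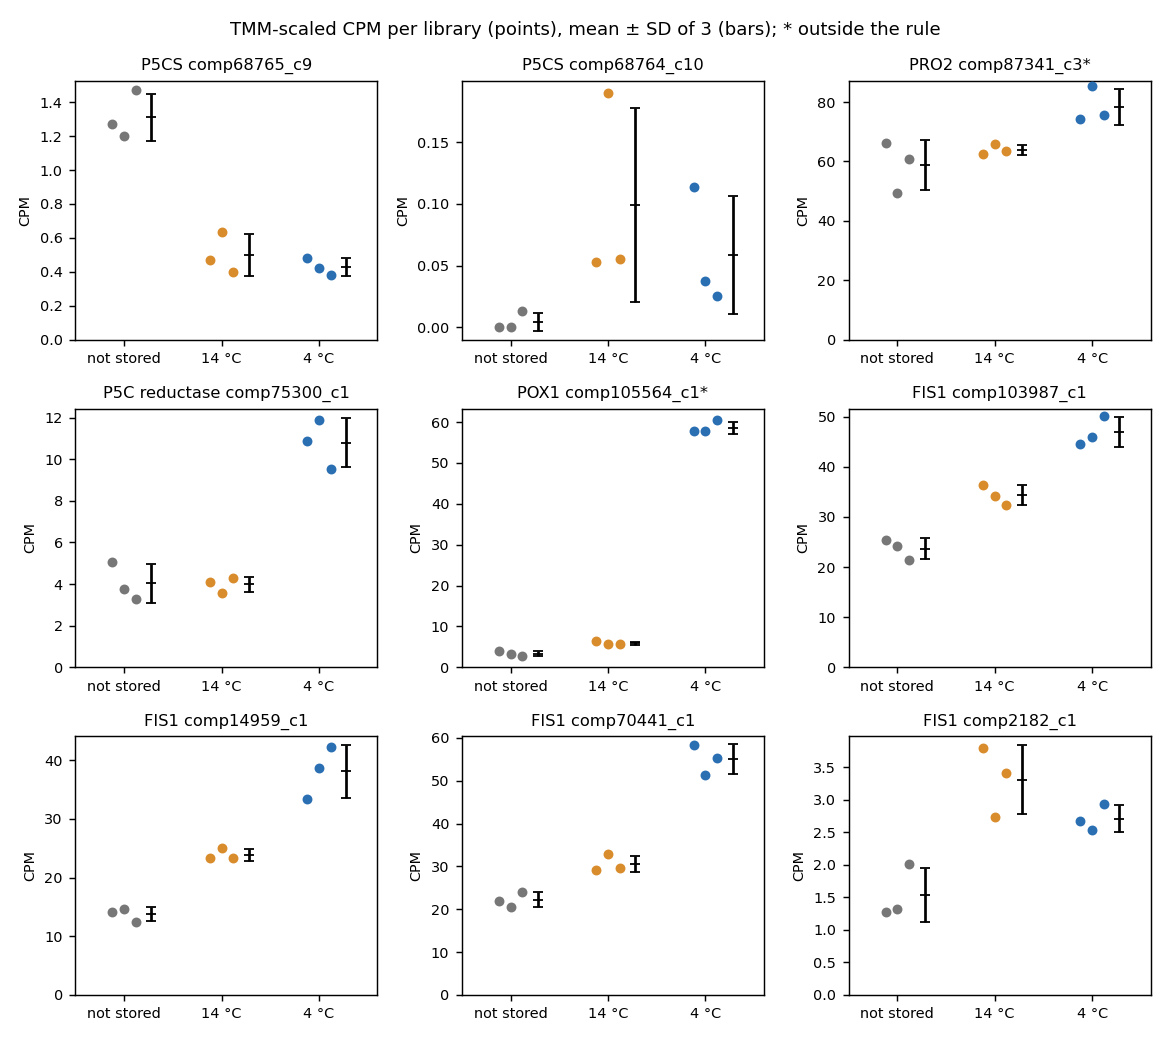
TMM-scaled CPM (vertical axis, linear) in every library of roots not stored, at 14 °C and at 4 °C for the 7 members and for PRO2 and POX1, which lie outside the rule (asterisk); points are libraries and bars are mean ± SD of 3. The P5C reductase points at 4 °C (9.52 to 11.9 CPM) lie above all others of that panel, and the long FIS1 contigs step up from not stored to 14 °C to 4 °C.

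On the synthesis side, the longer P5CS contig, comp68765_c9, was lower in both stored groups. It held 1.27, 1.20 and 1.47 CPM in the libraries of roots not stored, 0.467, 0.637 and 0.399 CPM at 14 °C and 0.483, 0.423 and 0.381 CPM at 4 °C. Every library of roots not stored lay above every stored library, while the stored groups overlapped. The log2 fold change was -1.38 ± 0.28 (SE) at 14 °C (adjusted p = 0.0027, edgeR) and -1.61 ± 0.28 at 4 °C (adjusted p = 0.00042, edgeR), both against roots not stored. Between the storage temperatures it was -0.23 ± 0.28 (adjusted p = 0.54, edgeR). The depth behind these values is small, with 322 estimated counts over the 3 libraries of roots not stored, 130 at 14 °C and 98 at 4 °C.

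The shorter P5CS contig, comp68764_c10, had few counts in every group. It had 0, 0 and 1 counts in roots not stored, 5, 17 and 4 at 14 °C and 8, 3 and 2 at 4 °C. The ratio of its depth-scaled counts to roots not stored was 24.9 at 14 °C (95% exact binomial interval 4.09 to 1020) and 13.9 at 4 °C (2.09 to 591). These intervals rest on 26 and 13 counts against 1 and cover counting error only. Its higher libraries were thus the stored ones, the opposite of the longer P5CS contig.

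P5C reductase, the last enzyme of proline synthesis, rose at 4 °C, and no change was called at 14 °C. Contig comp75300_c1 stood at 5.08, 3.76 and 3.27 CPM in roots not stored, at 4.09, 3.56 and 4.28 CPM at 14 °C and at 10.9, 11.9 and 9.52 CPM at 4 °C. All 4 °C libraries were above all of the others, and the remaining groups overlapped. The log2 fold change was 1.44 ± 0.19 against 14 °C (adjusted p = 5e-05, edgeR) and 1.41 ± 0.19 against roots not stored (adjusted p = 4.7e-05, edgeR). Between 14 °C and roots not stored it was -0.02 ± 0.18 (adjusted p = 0.94, edgeR), and the sign of that difference turned with the scaling, at 0.23 under library totals alone.

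P5C dehydrogenase, the enzyme that returns P5C to glutamate, was the most abundant step among the members, and its 3 long contigs rose in both stores. The symbol FIS1 comes from flax, where the gene was found as induced by rust infection. Contig comp70441_c1 had 22.0, 20.5 and 24 CPM in roots not stored, 29.2, 32.8 and 29.7 CPM at 14 °C and 58.4, 51.4 and 55.2 CPM at 4 °C. The 3 groups did not overlap, and the 4 °C libraries stood well apart from the others. Its log2 fold change was 0.85 ± 0.11 between 4 °C and 14 °C (adjusted p = 6e-05, edgeR) and 1.31 ± 0.11 between 4 °C and not stored (adjusted p = 1.4e-06, edgeR). The 14 °C rise of 0.46 ± 0.11 (adjusted p = 0.0086, edgeR) did not pass without replicate 2 of the roots not stored, where it was 0.38 (adjusted p = 0.056, edgeR).

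Contig comp14959_c1 had 14.2, 14.7 and 12.5 CPM in roots not stored, 23.3, 25.1 and 23.4 CPM at 14 °C and 33.3, 38.7 and 42.2 CPM at 4 °C. Its groups did not overlap either, and each step up was called. The log2 fold change was 0.79 ± 0.12 from not stored to 14 °C (adjusted p = 0.00059, edgeR), 0.67 ± 0.12 from 14 °C to 4 °C (adjusted p = 0.00075, edgeR) and 1.46 ± 0.13 over both (adjusted p = 1.3e-06, edgeR).

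Contig comp103987_c1 had 25.5, 24.2 and 21.5 CPM in roots not stored, 36.4, 34.2 and 32.4 CPM at 14 °C and 44.5, 45.9 and 50.2 CPM at 4 °C. Here too every library of a group lay above every library of the group before it. The steps were 0.53 ± 0.11 to 14 °C (adjusted p = 0.004, edgeR) and 0.45 ± 0.11 from there to 4 °C (adjusted p = 0.006, edgeR) on the log2 scale, and 0.98 ± 0.11 from not stored to 4 °C (adjusted p = 1.7e-05, edgeR).

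The short FIS1 contig, comp2182_c1, rose in both stores without a called difference between them. It had 1.27, 1.32 and 2.01 CPM in roots not stored, 3.79, 2.74 and 3.41 CPM at 14 °C and 2.67, 2.53 and 2.93 CPM at 4 °C. The stored libraries were all above those not stored and overlapped with each other. The log2 fold change was 1.11 ± 0.23 at 14 °C (adjusted p = 0.0031, edgeR) and 0.82 ± 0.23 at 4 °C (adjusted p = 0.009, edgeR) against roots not stored. Between 4 °C and 14 °C it was -0.29 ± 0.22 (adjusted p = 0.3, edgeR).

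**Figure D2:**
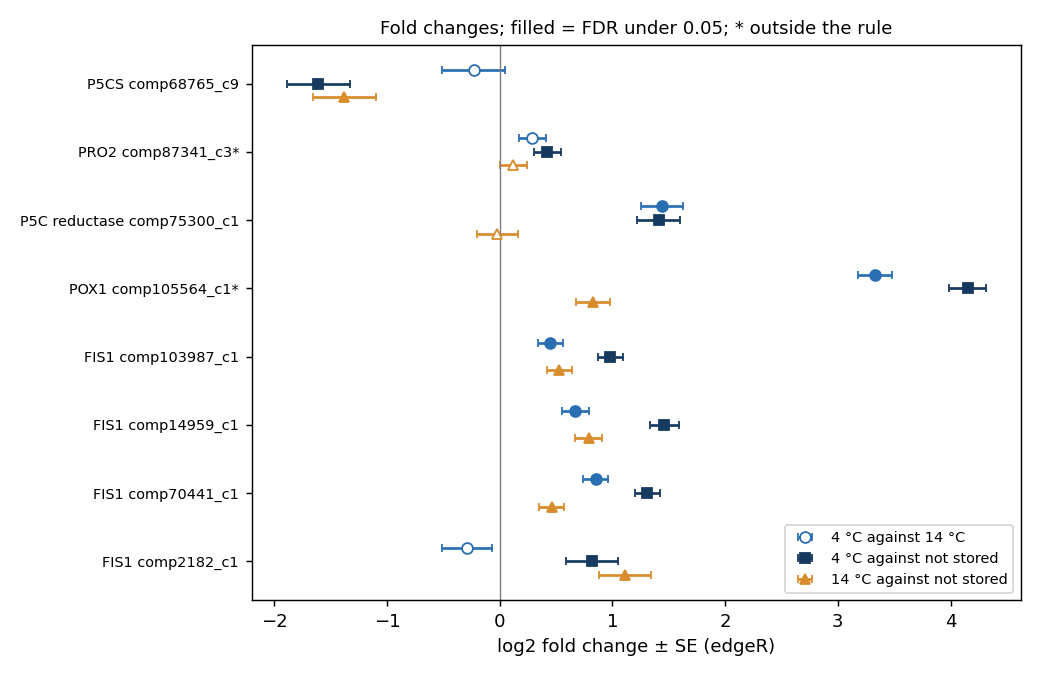
Log2 fold change ± SE (horizontal axis) of the 6 tested members and of PRO2 and POX1, which lie outside the rule (asterisk), for 4 °C against 14 °C, 4 °C against not stored and 14 °C against not stored; filled symbols passed a false discovery rate of 0.05. P5CS comp68765_c9 lies left of 0 and PRO2, also a name for P5CS, lies right of it at 0.29, 0.42 and 0.12. P5C reductase lies at 1.44 and 1.41 in the 4 °C comparisons and at -0.02 for 14 °C, and POX1 lies farthest right at 3.33 and 4.15 for 4 °C.

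Sweetpotato is a polyploid, and reads of near-identical FIS1 copies could be split between contigs by the counting, so the levels of single copies are uncertain. On the deposited TPM, which are scaled by contig length and may be set side by side, comp103987_c1 took 34.7% ± 3.23 of the summed FIS1 level in roots not stored, 32.1% ± 1.41 at 14 °C and 29.4% ± 0.678 at 4 °C (SD, n = 3 each). Contig comp70441_c1 took 34.8% ± 2.22, 30.7% ± 1.68 and 37.0% ± 2.76 of it in the same order. Contig comp14959_c1 took 22.0% ± 1.34, 25.5% ± 1.34 and 27.2% ± 2.16, and comp2182_c1 took 8.47% ± 2.18, 11.7% ± 1.93 and 6.41% ± 0.221. The ratio of comp103987_c1 to comp14959_c1 was 1.58 ± 0.105 in roots not stored, 1.26 ± 0.123 at 14 °C and 1.08 ± 0.0653 at 4 °C. The libraries ran from 1.49 to 1.69 in roots not stored, from 1.18 to 1.40 at 14 °C and from 1.03 to 1.16 at 4 °C, without overlap between the groups. The other pairs of long copies overlapped between some of the groups only. For comp103987_c1 over comp70441_c1 the ratio was 1.0 ± 0.149, 1.05 ± 0.0999 and 0.796 ± 0.0744 in the same order. Its 4 °C libraries (0.711 to 0.847) lay below those at 14 °C (0.972 to 1.16), and roots not stored overlapped with both. For comp14959_c1 over comp70441_c1 it was 0.636 ± 0.0772, 0.832 ± 0.0115 and 0.74 ± 0.109. Its 14 °C libraries (0.823 to 0.845) lay above all of the others, and the remaining groups overlapped. A two-sided exact permutation test of 3 libraries against 3 cannot give a p under 0.1, so it is no basis for saying whether the copies shifted against each other.

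Summed per enzyme on the TPM scale, P5C dehydrogenase stood at 25.2 ± 2.99 TPM in roots not stored, 52.5 ± 3.56 TPM at 14 °C and 71.8 ± 7.99 TPM at 4 °C (SD, n = 3 each). P5C reductase stood at 2.99 ± 0.436, 3.97 ± 0.288 and 9.80 ± 0.452 TPM. The P5CS contigs together stood at 1.83 ± 0.416, 1.16 ± 0.478 and 0.840 ± 0.182 TPM. In every group the order of the levels was P5C dehydrogenase, reductase, P5CS, and none of these enzymes overlapped with its neighbour in that order within a group. P5C dehydrogenase was 8.59 ± 1.88 times the reductase in roots not stored, 13.3 ± 1.55 times at 14 °C and 7.36 ± 1.17 times at 4 °C. TPM depend on what the abundant contigs take: on that scale the median log2 difference of all tested contigs was 0.44 between 14 °C and not stored, 0.27 between 4 °C and not stored and -0.20 between 4 °C and 14 °C, so changes between groups are read here from the TMM-scaled fits.

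The low P5CS level does not cover all contigs that could code for this enzyme. The table describes 5 contigs as glutamate 5-kinase, and 3 of them carry no P5CS symbol and so fall outside the rule. They were added after the table and its values had been seen. The most abundant is comp87341_c3, 2753 bases long, with the symbol PRO2, a tomato name for P5CS. PRO2 had 66.1, 49.5 and 60.7 CPM in roots not stored, 62.6, 65.9 and 63.5 CPM at 14 °C and 74.2, 85.3 and 75.7 CPM at 4 °C. The 4 °C libraries lay above all of the others, and the remaining groups overlapped. Its log2 fold change was 0.42 between 4 °C and not stored (adjusted p = 0.014, edgeR), which did not pass without replicate 2 of the roots not stored (0.28, adjusted p = 0.087, edgeR) or without replicate 2 at 4 °C (0.34, adjusted p = 0.07, edgeR). Between 4 °C and 14 °C it was 0.29 (adjusted p = 0.071, edgeR), and between 14 °C and not stored 0.12 (adjusted p = 0.48, edgeR).

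The other two went different ways. Contig comp41552_c6 had 4.05 ± 1.94 CPM in roots not stored, 0.686 ± 0.136 CPM at 14 °C and 1.36 ± 0.212 CPM at 4 °C (SD, n = 3 each), and was lower at 14 °C (log2 fold change -2.56, adjusted p = 0.00026, edgeR) and at 4 °C (-1.57, adjusted p = 0.002, edgeR) than in roots not stored. Contig comp80536_c1 stayed under 1 CPM, at 0.160 ± 0.0832, 0.275 ± 0.101 and 0.502 ± 0.133 CPM, with a log2 fold change of 1.63 at 4 °C against not stored (adjusted p = 0.013, edgeR). With all 5 glutamate 5-kinase contigs the summed level was 22.9 ± 2.26 TPM in roots not stored, 28.9 ± 2.28 TPM at 14 °C and 32.4 ± 1.02 TPM at 4 °C, which places the step above the reductase in every group.

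Proline dehydrogenase itself was found outside the rule as POX1, comp105564_c1, an Arabidopsis symbol for this enzyme. It is the 1 contig whose gene ontology terms include proline dehydrogenase activity; it has no product description and was added after the values were seen. POX1 had 3.95, 3.24 and 2.67 CPM in roots not stored, 6.31, 5.64 and 5.59 CPM at 14 °C and 57.8, 57.7 and 60.4 CPM at 4 °C. The 3 groups did not overlap, and the 4 °C libraries lay far above the rest. The log2 fold change was 3.33 ± 0.15 between 4 °C and 14 °C (adjusted p = 1e-08, edgeR), 4.15 ± 0.16 between 4 °C and not stored (adjusted p = 2.5e-09, edgeR) and 0.83 ± 0.15 between 14 °C and not stored (adjusted p = 0.0012, edgeR).

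Set against PRO2 and against the summed P5C dehydrogenase, POX1 stood highest at 4 °C, and it stayed below P5C dehydrogenase in every group. The ratio of POX1 to PRO2 within a library, in TPM, was 0.0883 ± 0.0175 in roots not stored, 0.143 ± 0.0128 at 14 °C and 1.18 ± 0.102 at 4 °C (SD, n = 3 each). The ratio of POX1 to the summed P5C dehydrogenase contigs was 0.0619 ± 0.012, 0.0702 ± 0.00433 and 0.473 ± 0.00917 in the same order. The ratio of the reductase to PRO2 was 0.171 ± 0.0327, 0.154 ± 0.018 and 0.341 ± 0.0263. For all of these ratios the 4 °C libraries lay above both other groups.

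**Figure D3:**
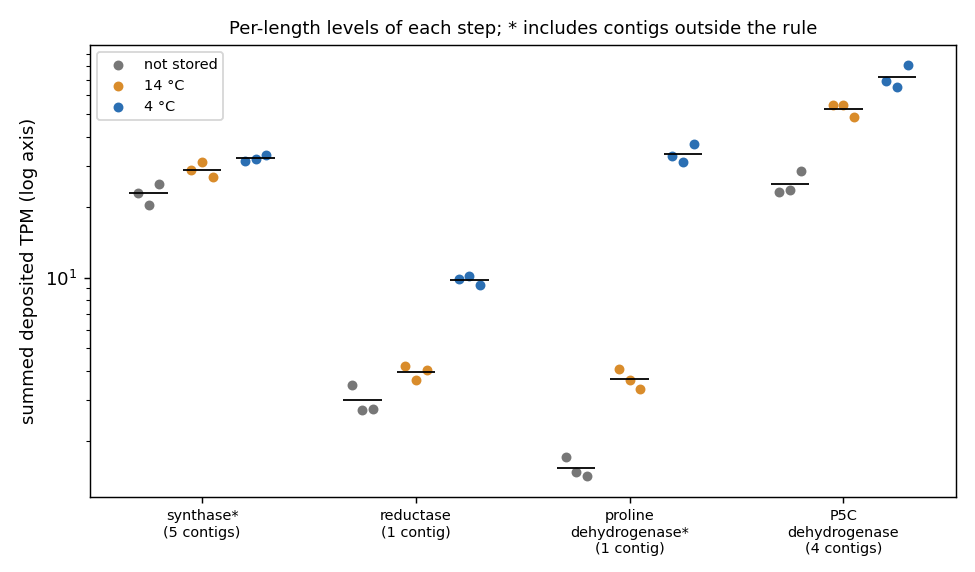
Summed deposited TPM per enzyme (vertical axis, log scale) in each library, with lines at the mean of 3, ordered as synthase, reductase, proline dehydrogenase and P5C dehydrogenase; steps with an asterisk include contigs outside the rule. Proline dehydrogenase (POX1) stands at 1.54 TPM in roots not stored and at 33.9 TPM at 4 °C, and the synthase at 22.9 and 32.4 TPM. Between these groups the median log2 difference of all tested contigs on the TPM scale was 0.27, so changes between groups are read from the TMM-scaled fits.

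Enzymes around proline were counted in lists matched on the product description, and each count for 4 °C against 14 °C is to be read against the 23.8% of all tested contigs called higher and the 24% called lower, with a median log2 fold change of -0.075. The ornithine route reaches P5C through ornithine aminotransferase. Of 3 contigs of that enzyme (ornithine--oxo-acid transaminase), 2 were higher at 4 °C than at 14 °C and 0 lower. Both carry the symbol DELTA-OAT. The more abundant, comp92946_c1, was at 55.2 ± 2.63 CPM at 14 °C and 87.7 ± 2.54 CPM at 4 °C (log2 fold change 0.67 ± 0.11, adjusted p = 0.00031, edgeR), and comp76330_c1 at 15.0 ± 1.32 and 35.3 ± 1.18 CPM (1.23 ± 0.13, adjusted p = 1.2e-05, edgeR). The pattern also took 3 acetylornithine aminotransferases, with 2 of them lower, and no arginase. Only 1 of these was lower without replicate 2 of the roots not stored, without replicate 2 or 3 at 14 °C, or without any single library at 4 °C.

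For the supply of glutamate, 17 contigs were higher and 12 lower at 4 °C than at 14 °C among 57 tested, with a median log2 fold change of -0.07. Of all tested contigs 23.8% were higher and 24% lower. The pattern had also taken 13 folylpolyglutamate synthases, enzymes of folate metabolism, of which 6 were lower and 0 higher. The count and median of the list thus do not describe the glutamate enzymes alone. Of 9 NAD(P)+ glutamate dehydrogenases, which interconvert glutamate and 2-oxoglutarate, 7 were higher and 0 lower. GLT1 (comp25130_c3), the NADH-dependent glutamate synthase, was at 124 ± 35.4 CPM at 14 °C and 443 ± 92.9 CPM at 4 °C (log2 fold change 1.83 ± 0.28, adjusted p = 0.00032, edgeR). Of 24 tested glutamine synthetases, which fix ammonium onto glutamate, 6 were higher, 6 lower and 12 did not pass (median -0.14). Of 4 NADP+ glutamate dehydrogenases 1 was higher and 0 lower, of 4 NADH-type glutamate synthases 3 were higher and 0 lower, and of 3 ferredoxin glutamate synthases 0 passed in either direction. The glutamine synthetase with the smallest adjusted p, GS1-2 (comp14934_c4) was at 6.88 ± 0.504 and 82.1 ± 5.88 CPM (3.58 ± 0.15, adjusted p = 4.7e-09, edgeR), and it does not stand for its class.

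Glutamate is also drawn off to GABA by glutamate decarboxylase, for which 4 of 4 contigs were higher at 4 °C than at 14 °C. The contig with the smallest adjusted p, GAD comp95383_c1, was at 0.0292 ± 0.028 CPM at 14 °C (3, 5 and 0 counts, close to the floor of 3 counts per library) and at 3.55 ± 1.41 CPM at 4 °C (adjusted p = 2.1e-06, edgeR). None of the 6 succinate-semialdehyde dehydrogenases, the last step of the GABA route, passed (0 higher and 0 lower), ALDH5F1 (comp56855_c1) among them with a log2 fold change of 0.20 ± 0.10 (adjusted p = 0.12, edgeR). ALDH5F1 passed in DESeq2's Wald test (0.23, adjusted p = 0.048), and 1 contig of the GABA list was lower under library totals alone, under the stricter filter and with only the groups compared.

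Arginine and polyamine synthesis share ornithine with the proline route. In arginine synthesis 5 contigs were higher and 7 lower at 4 °C than at 14 °C among 21 tested (median log2 fold change 0.07), where 23.8% of all tested contigs were higher and 24% lower. The 7 lower were 5 of 9 tested glutamate N-acetyltransferases and 2 of 3 acetylornithine aminotransferases, which the ornithine list counts too. The 5 higher were 2 of 3 ornithine carbamoyltransferases, 1 of 2 acetylglutamate kinases and the only acetylornithine deacetylase and argininosuccinate synthase. These 5 became 3 under library totals alone, without replicate 1 at 14 °C, and also without replicate 1 at 4 °C. The acetylornithine deacetylase argE (comp87607_c1) rose from 78.5 ± 11.3 to 153 ± 6.61 CPM (log2 fold change 0.96 ± 0.13, adjusted p = 8.6e-05, edgeR). The glutamate N-acetyltransferase VITISV_037692 (comp27696_c2) fell from 13.2 ± 3.76 to 1.03 ± 0.132 CPM (-3.67 ± 0.25, adjusted p = 2.4e-07, edgeR).

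In polyamine synthesis 28 contigs were higher and 7 lower among 55 tested (median 0.54), against 23.8% and 24% of all tested contigs. The 7 became 4 under the stricter filter. All 5 arginine decarboxylases, which start one of the routes to putrescine, were higher; the most abundant, comp26226_c6, rose from 258 ± 52.4 to 1110 ± 260 CPM (log2 fold change 2.11 ± 0.21, adjusted p = 6.2e-06, edgeR). ACL5 (comp75771_c1), described as a spermidine synthase and known in Arabidopsis as thermospermine synthase, rose from 0.384 ± 0.0603 to 17.3 ± 1.49 CPM (5.49 ± 0.25, adjusted p = 1.1e-08, edgeR).

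Glycine betaine is another compatible solute of plants. Of 44 tested contigs of its synthesis 1 was higher and 16 lower at 4 °C than at 14 °C (median log2 fold change -0.80), against 23.8% higher and 24% lower among all tested contigs. The higher one was the betaine-aldehyde dehydrogenase BADH4 (comp79116_c1), the most abundant of the list, at 35.5 ± 3.5 CPM at 14 °C and 102 ± 5.1 CPM at 4 °C (1.53 ± 0.12, adjusted p = 8.2e-07, edgeR). The choline monooxygenase At4g29890 (comp63912_c1) fell from 7.99 ± 0.535 to 2.30 ± 0.115 CPM (-1.80 ± 0.13, adjusted p = 5.1e-07, edgeR).

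In the list for proline in proteins, which mixes several kinds of enzyme, 31 contigs were higher and 3 lower of 60 tested (median 0.74), against 23.8% and 24% of all tested contigs. The 3 became 1 without replicate 1 at 4 °C and 5 under library totals alone or with only the groups compared. Of the 64 contigs matched, 36 are described as the beta polypeptide of prolyl 4-hydroxylase, a description that covers protein disulfide isomerases, which help proteins fold. Among the 32 of these that were tested, 14 were higher and 3 lower. PDI (comp30647_c2) was at 398 ± 15.1 CPM at 14 °C and 571 ± 28.5 CPM at 4 °C (log2 fold change 0.52 ± 0.10, adjusted p = 0.0013, edgeR). PDIL1-4 (comp92121_c1) was at 31.7 ± 1.53 and 143 ± 22.7 CPM (2.17 ± 0.13, adjusted p = 8e-08, edgeR). Of 12 prolyl 4-hydroxylases 9 were higher and 0 lower, and of 3 proline iminopeptidases 1 was higher and 0 lower. Of 13 prolyl-tRNA synthetases 7 were higher and 0 lower. The list for proline and amino acid transport matched 0 descriptions.

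**Figure D4:**
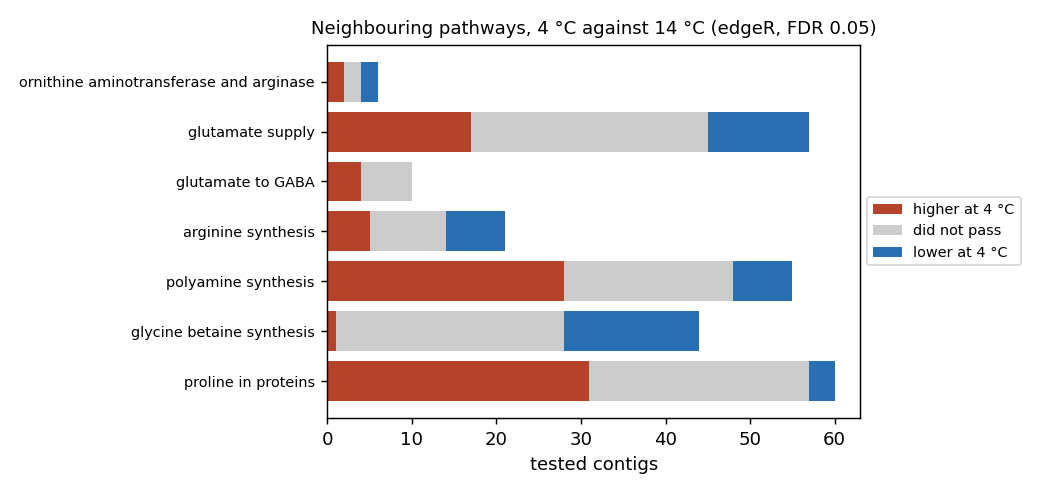
Number of tested contigs (horizontal axis) of each list around proline that were higher at 4 °C than at 14 °C, did not pass, or were lower, at a false discovery rate of 0.05 in edgeR. Of all tested contigs 23.8% were higher and 24% lower. Polyamine synthesis (28 higher, 7 lower of 55) and glycine betaine synthesis (1 higher, 16 lower of 44) lean in opposite directions by these counts. The 1 higher contig of glycine betaine synthesis, BADH4, was the most abundant of its list. The ornithine and arginine lists share 3 acetylornithine aminotransferases.

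The contigs whose levels ran most like the most abundant member of each enzyme were sought among 8364 contigs with an informative description and a mean of at least 5 CPM, by Pearson's r of log2(CPM + 1) over the 9 libraries. The libraries share depth and group structure, so r is a description only. Nearest to P5CS comp68765_c9 were HEMA1, glutamyl-tRNA reductase (comp34490_c4, r = 0.982), DHS2, which starts the shikimate pathway (comp13577_c1, r = 0.981), and COX3, a mitochondrial cytochrome oxidase subunit (comp69803_c1, r = 0.976). Nearest to P5C reductase comp75300_c1 were SAR1A, a small GTPase of vesicle budding (comp88341_c1, r = 0.997), ARP9, an actin-related protein (comp44136_c1, r = 0.996), and UGD2, UDP-glucose dehydrogenase (comp104381_c6, r = 0.995). Nearest to P5C dehydrogenase comp70441_c1 were AAE7, an acyl-activating enzyme (comp90217_c1, r = 0.996), carA, the small subunit of carbamoyl-phosphate synthase (comp8013_c3, r = 0.995), and a G-box-binding factor (comp86126_c2, r = 0.992).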

How the data were processed

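RNA of sweetpotato root was sequenced in 9 libraries, 3 per group; the labels' extraction text names another tissue than root, and the root label was used. The authors deposited estimated counts, TPM and RPKM per contig, per the file headers. TPM served only to set contigs side by side, and the RPKM that the authors deposited entered none of the results. DESeq2, edgeR, StringTie 1.3.4d, HISAT2 2.0.4 and cutadapt 1.9 are listed in the submitters' processing notes without roles; the tool that made the counts and the strand of the libraries are not given in the sources used here. None of the contigs matched the reference gene table (0 of 110110).

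Estimated counts were rounded and fitted in edgeR 4.0.16 (R 4.3.3) over all 9 libraries, with filterByExpr, TMM scaling and robust quasi-likelihood, and tested at a Benjamini-Hochberg false discovery rate of 0.05 over 94802 contigs. The fit was run on simulated data with changes in few contigs and only at 4 °C. That setting does not cover changes in as many contigs as were called here. SE is the size of the log2 fold change over the square root of F. CPM are counts over the TMM-scaled library size. Reads carry no molecular barcodes, so floors of 3 counts and 95% intervals cover counting error only. The spread behind the p-values is that between pools of roots.

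Members and lists were chosen with earlier results of these data known. Members whose mean reached 1 CPM in a group were described in full; from each list the most abundant contig and the one most strongly called (lowest adjusted p) between 4 °C and 14 °C were named. The 18 alternatives were DESeq2 1.42.0 size factors, library totals alone, no filter, a filter of 1 CPM in 3 libraries, a replicate block, only the groups compared, removal of the 100 most abundant contigs, DESeq2's Wald test, limma-voom (limma 3.58.1) and each library left out. A wider match of contigs for the enzyme sums was added after seeing the data.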

Additional observations from a re-analysis of the deposited data

How the results depend on the processing

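Under all 18 alternatives the members called higher and lower at 4 °C against 14 °C were 4 and 0, and the members called lower against roots not stored were 1 in each store. Those called higher at 4 °C against not stored were 5, or 6 with no filter, which tests comp68764_c10 too; those at 14 °C were 4, with 5 under no filter and 3 without replicate 2 of the roots not stored. Over all contigs, 14335 were called higher at 14 °C against not stored and 21986 under library totals alone, a scaling that put the median of all tested contigs at 0.27 there, so the share of higher calls depends on it; of 54 counts over members, lists and all contigs, 14 moved by more than 1.5 times under that scaling. Differences that had not passed turned sign as follows, and the cause was not tested. The reductase comp75300_c1 at 14 °C against not stored (-0.02) became 0.23 under library totals alone, 0.14 without replicate 1 of the roots not stored and 0.06 without replicate 2 at 14 °C, in a range of -0.22 to 0.14 over the libraries left out. PROT2 comp63127_c2 at 4 °C against 14 °C (-0.06) became 0.06 without replicate 3 at 14 °C and 0.11 without replicate 3 at 4 °C (range -0.20 to 0.11). PRO2 at 14 °C against not stored (0.12) became -0.02 without replicate 2 of the roots not stored (range -0.02 to 0.18) and passed under library totals alone (0.37, adjusted p = 0.04, edgeR). PRO2 at 4 °C against 14 °C (0.29) passed under 6 alternatives, DESeq2 size factors among them, with adjusted p from 0.041 to 0.048 (edgeR or DESeq2). Contig comp41552_c6 was higher at 4 °C than at 14 °C (1.00, adjusted p = 0.034, edgeR) and did not pass under 7 alternatives, the replicate block (1.01, adjusted p = 0.053, edgeR) among them. Summed P5CS of 1.83, 1.16 and 0.84 TPM in roots not stored, at 14 °C and at 4 °C became 22.9, 28.9 and 32.4 TPM under the wider match; the alternative of matching enzymes by description gave no value for it. Same-numbered libraries deviated from their group means with r from -0.40 to -0.053 between 4 °C and 14 °C and from -0.64 to -0.015 between 14 °C and not stored. Between 4 °C and not stored r ran from 0.11 to 0.37. Libraries of different number were not compared, so these values cannot decide whether replicate numbers pair the samples. The replicate block left the member counts at 4 and 0, 5 and 1, and 4 and 1. Depth limits P5CS most, with 98 counts over 3 libraries for comp68765_c9 at 4 °C and 1 count for comp68764_c10 in roots not stored.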

Other observations

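Proline moves between cells and organelles through transporters, and 5 contigs carry the symbols PROT1 or PROT2, Arabidopsis names for proline transporters; they were looked up after the values were seen. PROT1 comp31834_c2 had 0.353, 0.096 and 0.284 CPM in roots not stored, 0.986, 1.46 and 1.42 CPM at 14 °C and 0.284, 0.374 and 0.241 CPM at 4 °C. The 14 °C libraries were above all of the others, and the log2 fold change of 4 °C against 14 °C was -2.10 ± 0.41 (adjusted p = 0.0012, edgeR). The other 4 did not pass in that comparison, with log2 fold changes of -0.32 for PROT2 comp14817_c1, -0.18 for PROT1 comp60335_c1, -0.06 for PROT2 comp63127_c2 and 0.21 for PROT2 comp36503_c1. The first of these, PROT2 comp14817_c1, was the most abundant at 9.91 ± 0.311 CPM in roots not stored, 10.1 ± 0.67 CPM at 14 °C and 8.11 ± 0.567 CPM at 4 °C (SD, n = 3 each), and passed in 3 of the alternatives: library totals alone (-0.47, adjusted p = 0.01, edgeR), the stricter filter (-0.37, adjusted p = 0.017, edgeR) and only the groups compared (-0.36, adjusted p = 0.039, edgeR). Against roots not stored, PROT1 comp31834_c2 was higher at 14 °C (log2 fold change 2.39, adjusted p = 0.0012, edgeR) and not called at 4 °C. PROT1 comp60335_c1 was lower at 14 °C (-0.68, adjusted p = 0.023, edgeR) and at 4 °C (-0.86, adjusted p = 0.0035, edgeR). The PROT2 contigs did not pass against roots not stored in either store.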
